A study of Rattus norvegicus with 8 samples.

Results

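The Homer, Shank, Dlg and Tanc genes encode the scaffold of the excitatory postsynaptic density, and their transcripts were followed in the hippocampus of adrenalectomized (ADX) rats after a corticosterone infusion. The members were fixed by name as 10 genes, Homer1, Homer2, Homer3, Shank1, Shank2, Shank3, Dlg2, Dlg4, Tanc1 and Tanc2. Of these, 9 have a row in the deposited expression table, with 14 transcripts among its 16266 transcripts and 13272 gene symbols. Shank2 has no row and is not described further. Most of the scaffold transcripts were slightly higher in the corticosterone group, while the main Homer3 transcript and Tanc1 differed by a few percent in the other direction. By the FPKM summed over each gene's transcripts, the relative differences of Homer1 and Shank1 were the largest.

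Whole hippocampi of 8 adult rats were sequenced, all adrenalectomized, labelled as Sprague-Dawley and 3 to 4 months old, whereas the methods of the study name male Lister hooded rats of a younger age. The 4 vehicle rats received 0.45% saline and the 4 CORT rats corticosterone-2-hydroxypropyl-β-cyclodextrin at 0.75 mg/mL, each as a 30 min intravenous infusion at zeitgeber time (ZT) 2. Tissue was collected 2 h after the start of the infusion. By the methods, the rats drank corticosterone in saline after surgery, and saline alone replaced it some hours before the experiment. Both groups therefore lacked adrenal steroids of their own and had been withdrawn from a replacement. The comparison asks which transcripts differ when corticosterone is given early in the resting phase, when natural secretion is low. No cyclodextrin is named for the vehicle, so differences due to the steroid and to its carrier cannot be told apart. The table holds a single value for each group in FPKM, fragment counts scaled to transcript length and library size, and none for a single rat. The spread between rats and the depth of each library are thus unknown here, no test between groups could be run, and each difference is described by its size only. As a yardstick, a transcript was counted as higher or lower when its FPKM differed by more than 1.2-fold, which is 0.26 on the log2 scale.

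At an excitatory synapse the postsynaptic density lies beneath the receptors as layers of binding proteins. Dlg proteins bind the tails of NMDA receptors and of other membrane proteins close to the membrane, Shank proteins form a deeper layer, and Homer proteins link Shank to group I metabotropic glutamate receptors and to calcium channels of the endoplasmic reticulum. Tanc proteins are large scaffolds with ankyrin repeats that bind several of these partners. In hippocampal neurons this assembly anchors receptors in dendritic spines, and its make-up is known to change with synaptic activity.

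RefSeq promoter windows on the GRCr8 assembly, from 250 bases before to 50 bases after a transcription start, were given for 7 of the 10 members, namely Homer1, Homer3, Shank3, Dlg2, Dlg4, Tanc1 and Tanc2. Homer1 and Shank3 are shown, since their windows are the 2 that begin at the outer end of the annotated gene. The 250 bases before the start are printed 5′ to 3′ on the plus strand, with each CG pair in capitals.

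Homer1, chr2:26278762-26279011: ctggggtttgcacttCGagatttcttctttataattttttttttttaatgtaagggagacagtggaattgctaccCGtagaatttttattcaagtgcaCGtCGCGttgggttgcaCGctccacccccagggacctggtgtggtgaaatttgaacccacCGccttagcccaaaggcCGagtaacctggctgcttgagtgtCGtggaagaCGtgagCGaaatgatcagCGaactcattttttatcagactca
Shank3, chr7:122448073-122448322: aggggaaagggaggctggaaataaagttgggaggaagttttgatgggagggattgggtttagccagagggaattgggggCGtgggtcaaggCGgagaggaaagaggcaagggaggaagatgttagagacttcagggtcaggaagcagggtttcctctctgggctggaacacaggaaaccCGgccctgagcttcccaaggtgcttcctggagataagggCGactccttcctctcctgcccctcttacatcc

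The Homer1 stretch holds 12 CG pairs at a GC content of 46.4%, and the Shank3 stretch 4 at 56.0%. The median over all promoters of the same length was 5 CG pairs and 51.2% GC. Among the other members the GC content ran from 42.4% for Dlg2 to 85.6% for Tanc2, which holds 47 CG pairs. Motifs were searched on both strands of the full 300 bases. The full palindromic glucocorticoid response element was found in none of the 7 windows and in 0.0149% of all 33469 promoters. Its arm AGAACA, which lies within it, was also found in none, against 20.7% of all promoters. The cAMP response element TGACGTCA, in 1.83% of all promoters, and the E-box CACGTG, in 6.42%, were found in none of the 7 windows either. These are matches of letters in a short window, and elements farther from the start were not searched. Except for Homer1 and Shank3, the starts used lie away from the outer end of the annotated gene. The distance was 207 bases for Tanc2, 387 for Dlg4, 2103 for Homer3, 34710 for Tanc1 and 675126 for Dlg2.

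Of the 14 scaffold transcripts, 12 were higher in the CORT group by any amount, against 55.0% of all transcripts in the table. By the 1.2-fold yardstick 4 transcripts were higher and 0 were lower, against 12.3% higher and 13.3% lower in the whole table. All 4 were the lesser transcript of their gene, and the count was 2 with at least 1 FPKM required in both groups and 0 with only the most abundant transcript of each gene. The median log2 ratio of CORT over vehicle was 0.20 for the scaffold transcripts and 0.02 for all transcripts, whose quartiles were -0.11 and 0.14. Neuron markers had a median of 0.13, and relative to it, an alternative chosen after seeing the data, the scaffold median was 0.07. The neuron median is over the most abundant transcript of each gene, and in that form the scaffold median, before centring, was 0.18 instead of 0.20. That median is the value of Dlg2, which was 0.05 relative to the neuron markers. Low transcripts vary more in this table, so the level of each transcript matters for its ratio. Of the 832 transcripts with a mean under 1 FPKM, 32.0% were at least 1.2-fold higher and 42.4% lower, whereas of the 2039 transcripts at 50 FPKM or more 4.32% were higher and 3.38% lower. For the 9 scaffold transcripts with a mean of at least 10 FPKM, 7 were higher by any amount, against 60.8% of such transcripts in the table, and 2 passed 1.2-fold, against 6.15%. The median log2 ratio of these 9 was 0.19, against 0.03 for all transcripts at that level. Of the 2 past 1.2-fold, the second Homer1 transcript was at 8.80 FPKM under vehicle and 11.2 FPKM under CORT. It met the mean of 10 FPKM only through the CORT group, so its place in that count follows from the filter.

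**Figure D1:**
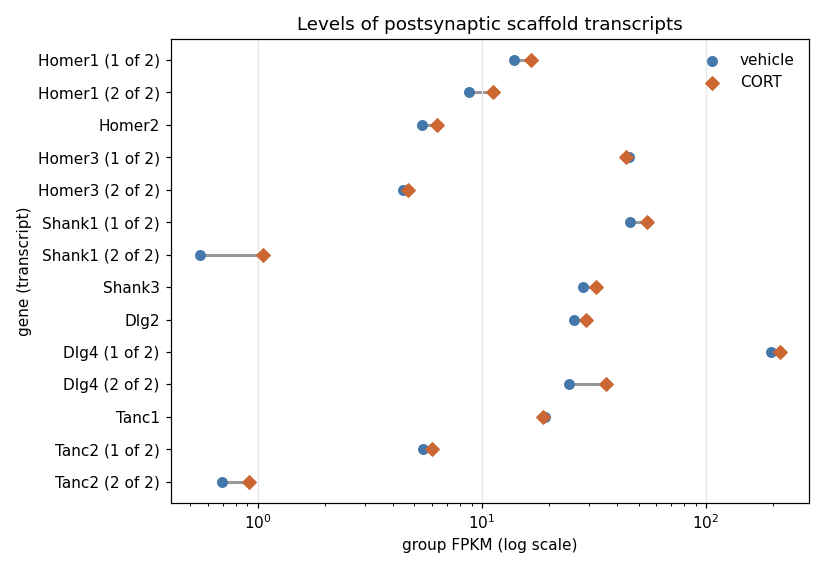
Group FPKM (log scale) of the 14 scaffold transcripts, with circles for vehicle and diamonds for CORT, each a single value without error; 1 of 2 marks the more abundant transcript of a gene. The diamond lies to the right of the circle for 12 transcripts, with the widest gaps for the second transcripts of Shank1 and Dlg4.

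Homer proteins carry a domain that binds proline-rich ligands in Shank, in group I metabotropic receptors and in inositol trisphosphate receptors, and their long forms assemble through a coiled coil. Homer1 is the family member known for a short form without the coiled coil, which is made upon neuronal activity and uncouples the long forms from their ligands. The table places Homer1 on chromosome 2 of rn6 between 22909568 and 23009678, a span shared by both of its transcripts. The main transcript, ENSRNOT00000071804.3, was at 13.9 FPKM under vehicle and 16.6 FPKM under CORT, a log2 ratio of 0.25. The second, ENSRNOT00000073871.2, was at 8.80 and 11.2 FPKM, a log2 ratio of 0.35. Both were thus higher in the CORT group, and the second was the only one past 1.2-fold. The table does not pair either transcript with the long or the short protein form. Summed over both, Homer1 was at 22.7 FPKM under vehicle and 27.9 FPKM under CORT, 22.5% higher and the largest relative difference among the 9 genes.

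Homer2, on chromosome 1 between 143443299 and 143535583, had the lowest level of the 9 genes in both groups. It was at 5.43 FPKM under vehicle and 6.31 FPKM under CORT, a log2 ratio of 0.22. Homer3, on chromosome 16 between 20881517 and 20890949, was the most abundant Homer gene. Its main transcript stood at 45.5 FPKM under vehicle and 44.1 FPKM under CORT, a log2 ratio of -0.05. Its second transcript stood at 4.47 and 4.70 FPKM, a log2 ratio of 0.07. The family was therefore not uniform, with Homer1 and Homer2 higher in the CORT group and the main Homer3 transcript slightly lower.

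Shank proteins are the master organizers of the deeper layer, where they bind Homer, the actin-binding protein cortactin and, through Dlgap proteins, the Dlg layer. Shank1 lies on chromosome 1 between 100297151 and 100344377. Its main transcript, ENSRNOT00000026100.5, was at 45.7 FPKM under vehicle and 54.7 FPKM under CORT, a log2 ratio of 0.26 and a fold of 1.197, just short of the yardstick. At 8.99 FPKM, the difference was the third largest in FPKM among the 14 transcripts. The second Shank1 transcript was at 0.550 and 1.06 FPKM, a log2 ratio of 0.94, which was the highest of the set. That ratio rests on values near the low end of the table, whose lowest mean is 0.406 FPKM, and it was 0.41 with 1 FPKM added to both values. Summed over both transcripts, Shank1 was at 46.3 FPKM under vehicle and 55.8 FPKM under CORT, 20.5% higher. Shank3, on chromosome 7 between 130474507 and 130532758, went from 28.3 FPKM under vehicle to 32.2 FPKM under CORT, a log2 ratio of 0.19.

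Dlg4 encodes the most abundant scaffold of the density, which holds NMDA receptors and AMPA receptor auxiliary subunits through its PDZ domains, and Dlg2 encodes a close relative. Dlg4 lies on chromosome 10 between 56627410 and 56653599. The main Dlg4 transcript, ENSRNOT00000068493.2, was at 195 FPKM under vehicle and 213 FPKM under CORT, a log2 ratio of 0.13, and 2.43% of all transcripts in the table had a higher mean. The second, ENSRNOT00000089108.1, was at 24.5 and 35.7 FPKM, a log2 ratio of 0.54. This was the largest relative difference among the scaffold transcripts above 1 FPKM in both groups. Summed over both transcripts, Dlg4 was at 219 and 248 FPKM, and it made up 51.9% of the FPKM of all 9 genes with vehicle and 52.4% with CORT. Dlg2, on chromosome 1 between 156552327 and 157269747, was at 25.7 FPKM under vehicle and 29.1 FPKM under CORT, a log2 ratio of 0.18.

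Tanc1, on chromosome 3 between 45683992 and 45917745, was at 19.1 FPKM under vehicle and 18.7 FPKM under CORT, a log2 ratio of -0.03. Tanc2, on chromosome 10 between 93811349 and 94127697, was the second lowest of the 9 genes. Its main transcript was at 5.45 and 5.98 FPKM, a log2 ratio of 0.13. The second Tanc2 transcript was at 0.690 and 0.913 FPKM, a log2 ratio of 0.41, under 1 FPKM in both groups. By family, the median log2 ratio was 0.22 over the 5 Homer transcripts, 0.26 over the 3 Shank transcripts, 0.18 over the 3 Dlg transcripts and 0.13 over the 3 Tanc transcripts. Each family had 1 transcript past 1.2-fold.

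**Figure D2:**
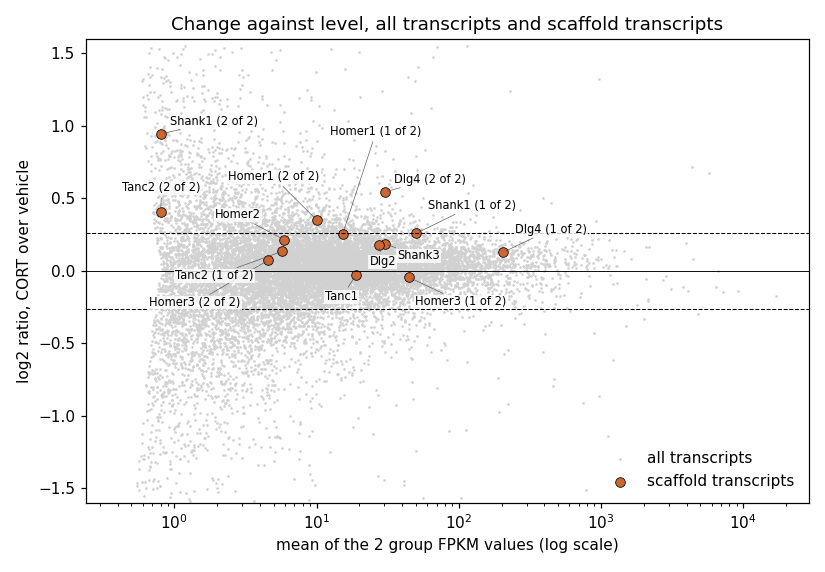
Log2 ratio of CORT over vehicle against the mean of the 2 group FPKM values (log scale), with grey points for all transcripts and named points for the 14 scaffold transcripts; dashed lines mark 1.2-fold, and 273 transcripts beyond 1.6 on the log2 scale are not drawn. Of the 4 scaffold points above the upper line, those of Shank1 and Tanc2 lie at the low end, and none lies below the lower line.

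When the FPKM of each gene's transcripts was summed, 7 of the 9 genes were higher in the CORT group, against 55.0% of all gene symbols, and 2, Homer3 and Tanc1, were lower. Homer1 and Shank1 passed 1.2-fold, 2 of 9, against 7.84% of all gene symbols. Shank1 stood just inside the yardstick at 1.205-fold, and Homer2 was the nearest gene outside it at 1.162-fold. The changes of the other genes lay between -2.33% for Homer3 and 13.8% for Shank3. The order of the summed levels with vehicle was Dlg4, Homer3, Shank1, Shank3, Dlg2, Homer1, Tanc1, Tanc2 and Homer2. It was the same with CORT except that Shank1, at 55.8 FPKM, stood above Homer3, at 48.8 FPKM. Without values for single rats, it is not known which neighbours in this order differ beyond their spread.

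In each of the 5 genes with a second transcript, the lesser one took a larger share of the gene's FPKM in the CORT group, against 56.6% of the 2013 symbols in the table with 2 transcripts of unequal level. For Dlg4 the share was 11.2% with vehicle and 14.4% with CORT. For Tanc2 it was 11.2% and 13.3%, and for Homer1 38.7% and 40.3%. For Homer3 it was 8.95% and 9.64%, and for Shank1 1.19% and 1.90%. In percentage points the shift was largest for Dlg4 and smallest for Homer3 and Shank1, whereas relative to its own share the lesser Shank1 transcript moved the most. As Cufflinks divides reads that fit several transcripts of a gene among them, the 2 values of a gene are not independent.

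**Figure D3:**
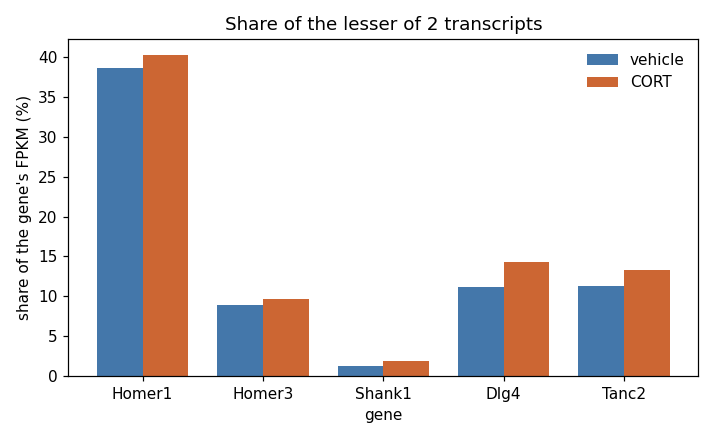
Share of a gene's FPKM (%) held by the lesser of its 2 transcripts in the vehicle and CORT groups, as bars from 0 without error. The CORT bar is the taller one for all 5 genes, by the most percentage points for Dlg4.

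The next comparison places the scaffold genes among the genes they work with, each represented by its most abundant transcript. In this form 0 of the 9 scaffold genes passed 1.2-fold in either direction, at a median log2 ratio of 0.18, against 20.3% of all symbols (8.34% in the higher direction) and a median of 0.02. By any amount, 54.2% of all symbols were higher. Of 30 other postsynaptic scaffolds and signalling proteins, 23 were higher by any amount, 4 by more than 1.2-fold and 0 lower by as much, with a median of 0.10. The 4 were Lin7a, from 1.23 to 2.21 FPKM, the AMPA receptor binding Grip2, from 4.04 to 5.12 FPKM, Dlgap2, from 3.91 to 4.88 FPKM, and Sipa1l1, a regulator of Rap, from 20.6 to 24.9 FPKM. Summed over its 2 transcripts, Dlgap2 was at 6.38 and 7.41 FPKM, a log2 ratio of 0.22 that falls short of 1.2-fold. Camk2a, a kinase subunit singled out as the most abundant gene of this list, was at 593 and 667 FPKM, a log2 ratio of 0.17.

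All 18 measured binding partners of 19 listed were higher by any amount with CORT, at a median of 0.14, and 3 passed 1.2-fold. These were the NMDA receptor subunits Grin2b, with 3.98 and 6.80 FPKM, and Grin2a, with 9.21 and 12.1 FPKM, and the inositol trisphosphate receptor Itpr1, a Homer ligand, with 24.4 and 29.9 FPKM. The metabotropic receptor Grm5, which also binds Homer and was singled out after its value was seen, showed a log2 ratio of 0.18. In the inhibitory postsynapse, which uses gephyrin instead of these scaffolds, 7 of 9 measured genes were higher, at a median of 0.11. Lhfpl4, which belongs to GABA-A receptor complexes, was among those past 1.2-fold, at a log2 ratio of 0.37. All 12 presynaptic active zone scaffolds were higher, at a median of 0.13, and Pclo, Erc2 and Bsn passed 1.2-fold at 0.32, 0.31 and 0.29. The 11 measured spine actin regulators had a median of 0.03 and none past 1.2-fold. Small positive medians were thus found for the scaffold genes and for the presynaptic and inhibitory lists, while the actin median lay close to that of all symbols.

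Responses known for corticosterone were far larger. All 11 glucocorticoid responsive genes were more than 1.2-fold higher in the CORT group, at a median log2 ratio of 0.92, and the 5 largest ratios were those of Pdk4, Sgk1, Klf15, Per1 and Tsc22d3. Sgk1, a kinase that regulates ion transport, went from 28.5 to 70.4 FPKM, and the clock gene Per1 from 10.2 to 19.7 FPKM. The genes of this list are known responders and were listed with earlier results in view, so their direction is not independent evidence. Of 14 measured immediate early genes, 9 were higher and 2 lower by this yardstick, at a median of 0.55. Among them, Arc, whose product acts in spines, was at 8.27 FPKM under vehicle and 14.4 FPKM under CORT. Fos was at 2.87 and 5.38 FPKM, and Nr4a1, Egr1 and Egr4 showed log2 ratios of 0.77, 0.65 and 0.56. The most abundant of the 6 Bdnf transcripts was lower with CORT, at 3.87 and 2.38 FPKM. The others are not described here, so this is not a value for the whole gene. The log2 ratios of both Homer1 transcripts, 0.25 and 0.35, lay below the median of these genes and above the values of Nr4a3 and Btg2, both at 0.10, and of Npas4, at -0.30, genes singled out after their values were seen. Egr3, at 0.25 and singled out likewise, was close to the main Homer1 transcript.

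Markers of cell types moved beside these values. In whole tissue, fewer cells of a type and less RNA per cell cannot be told apart. Of 10 neuron markers, 8 were higher with CORT and none passed 1.2-fold, and the summed level was 3977 FPKM under vehicle and 4209 FPKM under CORT. With the scaffold ratios taken relative to the neuron marker median of 0.13, 11 transcripts were above 0 and 3 below, and the second Homer3 transcript changed sign. Among those above 0, the main transcripts of Dlg4, at 0.0006, and of Tanc2, at 0.008, were level with the neuron markers. The interneuron markers, which led with Sst at 151 and 195 FPKM, had a median of 0.30, with 4 of 6 past 1.2-fold, namely Vip, Sst, Slc32a1 and Pvalb.

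Among hippocampal subfields, the medians were 0.21 for 3 measured CA1 markers, 0.02 for 3 CA3 markers and -0.16 for 3 dentate gyrus markers. The CA3 median was -0.01 when centred on all transcripts. The most abundant were Wfs1, Bok and C1ql2, and Prox1 of the dentate gyrus was lower past 1.2-fold, with 10.9 and 8.96 FPKM. The hippocampal label was thus met by markers of all 3 subfields, although Fibcd1, Iyd, Dsp and Tdo2 have no row.

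Glial lists had medians below 0. The 6 astrocyte markers had a median of -0.31 and 3 past 1.2-fold, namely Gfap, Aldh1l1 and Aqp4. Gfap, the most abundant, was at 970 and 517 FPKM. The summed level of the astrocyte list was 1501 FPKM under vehicle and 1016 FPKM under CORT, and most of that difference was in Gfap. The log2 ratios of the remaining markers were -0.09 for Slc1a3, -0.10 for Gja1 and 0.14 for Slc1a2. When the transcripts of each symbol were summed, an alternative chosen after seeing the data, the astrocyte median was -0.09. At that median Gfap, Aldh1l1 and Aqp4 cannot all have stayed past 1.2-fold, and of these only Aldh1l1 and Aqp4 have further transcripts. The 7 oligodendrocyte markers had a median of -0.23, their summed level being 5113 and 4252 FPKM, and Mbp, at 2226 and 1772 FPKM, was the one past 1.2-fold. The 7 microglia markers had a median of -0.20 and summed to 242 and 210 FPKM, with Cx3cr1 and Aif1 lower and Tmem119 higher past 1.2-fold, and C1qa as the most abundant.

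The 5 thalamic and habenular markers with a row were all lower past 1.2-fold, at a median of -1.24, and their summed level was 31.6 FPKM under vehicle and 13.8 FPKM under CORT. They were Chrna3, Gpr151, Prkcd, Tcf7l2 and Slc17a6. The most abundant, Prkcd, was at 10.7 and 4.53 FPKM by its main transcript. When the transcripts of each symbol were summed, an alternative chosen after seeing the data, the median of this list was -1.01. Prkcd is the only gene of the list with a second transcript, so its own fall was smaller in that form. Of 4 measured meningeal markers 3 were lower past 1.2-fold, the collagens Col3a1 and Col1a1 and Lum, at a median of -0.82, with sums of 44.1 and 32.9 FPKM and Dcn, at 18.8 and 20.0 FPKM, as the most abundant. The 5 choroid plexus markers had a median of -0.05 and summed to 6717 and 6701 FPKM, with Ttr at 6605 and 6598 FPKM and Aqp1 lower past 1.2-fold. The 4 measured endothelial markers had a median of -0.11 and summed to 90.9 and 83.1 FPKM, led by Cldn5, with Tek lower past 1.2-fold. The part of these marker differences in the scaffold values was not tested.

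**Figure D4:**
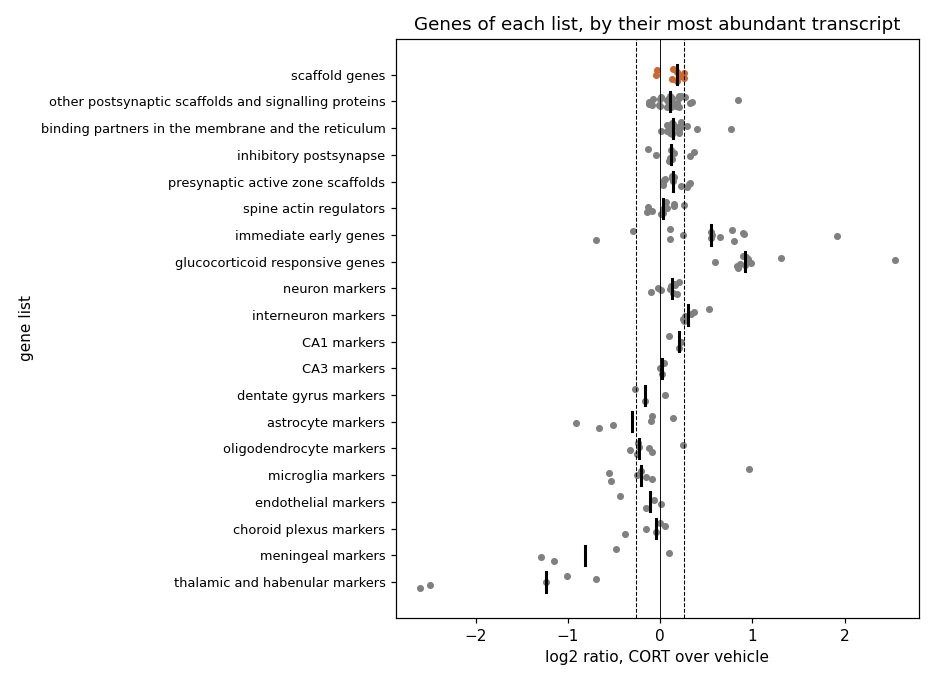
Log2 ratio of CORT over vehicle for the genes of each list by their most abundant transcript, with a point for each gene, a bar at the list's median and dashed lines at 1.2-fold. The points of the scaffold genes overlap those of the other synaptic lists. Their median of 0.18 is above the median of each of those lists, the nearest being the binding partners at 0.14. It is below the medians of the CA1 markers, 0.21, and the interneuron markers, 0.30. Whether such gaps exceed the spread between rats was not tested. The scaffold genes lie far below the glucocorticoid responsive genes, with a median of 0.92.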

How the data were processed

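Whole hippocampi of 4 vehicle and 4 CORT rats were sequenced with a TruSeq Stranded Total RNA kit. The FPKM values were made by the authors with TopHat2, Cufflinks and Cuffdiff on rn6, with geometric scaling of libraries, corrections for multi-mapped reads, sequence bias and effective length, and removal of features under a minimum alignment count; the 4 rats of a group share 1 deposited value. The submitters' processing notes name CASAVA 1.8.2, TopHat2 2.0.10 and Cuffdiff 2.2.0. The annotation version and strand setting are not given in the sources used here. The table also holds the authors' own fold changes, test statistics, p-values and q-values, which were not used.

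Members were matched by exact symbol, with all their transcripts. Log2 ratios were computed without a pseudocount. Named genes were all members and, from each of 19 other lists, at most the 5 largest rises and 5 largest falls past 1.2-fold with a mean of at least 1 FPKM, and the most abundant marker. Some list genes are not reported here by name. The members and lists were chosen with earlier results of these data known, and the glucocorticoid list in particular is no independent evidence. For the lists, the most abundant transcript stood for each gene. Functions were checked on a simulated table. Motifs and base content came from RefSeq promoters of GRCr8. Protein sequences were not analysed here. The alternatives were other folds, pseudocounts, filters on low values, centring and summing per symbol. Python 3.11.15, numpy 2.4.6, pandas 2.3.3 and matplotlib 3.10.9 were used.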

Additional observations from a re-analysis of the deposited data

How the results depend on the processing

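The number of scaffold transcripts past 1.2-fold was 4, and it was 9 at 1.1-fold, 1 at 1.5-fold and 0 at 2-fold. It was 2 with at least 1 FPKM in both groups, 2 when FPKM was summed per symbol and genes were counted, and 0 when each gene was represented by its most abundant transcript, a choice made after seeing the data. It was 3 or 4 under the other alternatives run. The median log2 ratio of 0.20 lay between 0.18 and 0.20 under the pseudocounts, filters, centring on all transcripts and both ways of counting genes. It was 0.0748 when centred on the neuron markers, an alternative chosen after seeing the data. That value sets all scaffold transcripts against a neuron median over the most abundant transcript of each gene. A pseudocount of 1 FPKM moved 2 of the 14 transcripts by over 0.1 on the log2 scale, the second ones of Shank1 and Tanc2, and one of 0.1 FPKM moved 1. Centring on the neuron markers lowers every transcript by the same 0.13, and so moved all 14. Of the 19 other lists, summing per symbol moved the medians of 2, and a pseudocount of 1 FPKM those of 2. No alternative turned the direction of a transcript past 1.2-fold, but pseudocounts, filters and other folds cannot change a sign. The medians used for centring, 0.02 and 0.13, are smaller than the 0.26 of the yardstick. For these alternatives the outcome was therefore fixed in advance. Leaving out each rat was not run, since values per rat were not analysed here. No paired analysis was possible because each group has a single value. No precision and no limit of detection can be given without a depth per rat.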

Other observations

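Dlg3, a close relative of Dlg2 and Dlg4 outside the named members, has 5 transcripts in the table and was singled out after its values were seen. The most abundant was at 30.2 FPKM under vehicle and 27.8 FPKM under CORT, and the next at 16.1 and 20.0 FPKM. Their shares of the Dlg3 FPKM were 48.9% and 44.2% for the first, and 26.1% and 31.8% for the second. The remaining 3 were at log2 ratios of 0.08, -0.06 and -0.50, the last of them at 1.90 and 1.34 FPKM. Summed over all 5, Dlg3 was at 61.6 FPKM under vehicle and 62.9 FPKM under CORT, a log2 ratio of 0.03.

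Dlgap1, which links the Dlg and Shank layers and was also singled out after its values were seen, has 3 transcripts. The second was at 8.94 FPKM under vehicle and 13.7 FPKM under CORT, a log2 ratio of 0.62, and its share of the Dlgap1 FPKM was 15.5% and 21.0%. The main transcript was at 44.8 and 48.1 FPKM, a log2 ratio of 0.10. The third was at 3.93 and 3.61 FPKM. Dlgap2 went the other way, since the share of the lesser of its 2 transcripts was 38.7% under vehicle and 34.1% under CORT, at 2.47 and 2.52 FPKM. Whether such shifts between transcripts exceed the spread between rats was not tested.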
